A study of Homo sapiens with 2 samples.

Results

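PAX5, EBF1, TCF3, POU2AF1, POU2F2, SPI1, IRF4, IRF8, BCL6 and BACH2 are transcription factors and a coactivator of the B cell lineage. They were chosen by name, with earlier results of these data known, and all 10 were found among the 47352 gene names of the deposited window table. Their names covered 20 transcript listings with 1964 windows, and for each gene the listing with most windows was kept. The study mapped N6-methyladenosine (m6A), a methylated adenosine of messenger and other RNAs, in GM12878. This is a human B lymphocyte line immortalised by Epstein-Barr virus, called lymphoblastoid in the labels. Cells were grown in RPMI with 15% serum, and no treatment of the cells is named for either group. The first group was 1 library of fragmented RNA (the input), and the second was 1 library of fragments recovered with an m6A antibody (the IP). The labels also carry a source field that names mouse embryonic stem cells, while the organism, cell type and cell line fields all give the human line. With 1 library per group no value here has a replicate check, and intervals cover counting error only.

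PAX5, EBF1 and TCF3 set up and keep B cell identity, POU2F2 and its coactivator POU2AF1 act at octamer elements of immunoglobulin and other B cell genes, and SPI1 (PU.1) recruits IRF4 or IRF8 to composite elements. BCL6 and BACH2 are repressors that hold germinal centre B cells back from plasma cell differentiation, which high IRF4 favours. m6A is deposited on nascent messenger RNA by a methyltransferase complex, tends to lie near stop codons and in long exons, and is read by proteins that can shorten the life of the transcript.

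The table gave scaled coverage of input and IP in overlapping windows of about 100 nt placed every 50 nt along exons. Coverage is per base, so mean coverage can be set between genes of different length. The authors' scaling factor between the libraries is not given in the sources used here, so a ratio of IP to input has no absolute zero point. The window score is a log2 value that divides IP over input in a window by the same ratio of the gene's medians, with 1 added to each number. A score of 2 therefore means 4-fold enrichment over the gene's own median. Enrichment spread evenly along a whole transcript does not raise the score, so a low score does not mean low recovery in the IP. Windows at 2 or more are called enriched, and at least 2 consecutive enriched windows form a region. A gene was scored by its best pair of neighbouring windows, as the mean of the pair (the gene-level score). A gene counts as measured where its input averaged 1 or more in scaled coverage over at least 2 windows, which left 10756 names.

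About 51724807 input reads and 58507489 IP reads lay on the kept listings. The B cell markers CD79A and MS4A1 had mean scaled input of 93.2 and 44.9. All 5 pluripotency markers were below the minimum, the highest being SOX2 at 0.153. So were all 4 erythroid markers, 4 of 5 myeloid markers and 5 of 7 T cell markers. The exceptions were ITGAM at 1.12, CD3E at 1.52 and LCK at 8.28.

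The unselected RNA already separated the 10 genes into expressed and nearly silent ones. POU2AF1 and IRF4 had the most input, with mean scaled coverage of 57.7 and 56.8, at percentiles 96.8 and 96.7 of measured genes. TCF3 followed at 18.5, PAX5 at 14.3, IRF8 at 14.0, POU2F2 at 10.2 and SPI1 at 7.48. EBF1 was the lowest of the 8 measured genes at 3.004, percentile 41.3, below the median of 3.75 over all measured genes. BCL6 had 0.0414 and BACH2 0.00271, under the minimum. The order of close neighbours, such as PAX5 and IRF8, cannot be tested without replicates.

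The m6A signal divided the 8 measured genes into 5 with a region (PAX5, EBF1, POU2F2, SPI1 and IRF4) and 3 without (TCF3, POU2AF1 and IRF8). The share of 62.5% has an exact binomial interval of 24.5% to 91.5%, and 44.2% of all measured genes had a region. Of the 700 windows of the 8 genes, 52 were enriched (7.43%), against 5.75% of windows of all measured genes. The median gene-level score of the 8 was 2.62, and that of all measured genes was 1.81 with quartiles of 0.99 and 3.16. This score rose with window number, and the 8 genes had a median of 88.5 windows against 55 for all measured genes. The 8 genes were chosen by name with earlier results of these data known, so they are not a random sample. The interval is also wide, and it cannot tell them from the background or show that they match it. The size of the signal differed among the 8 genes: IRF4, PAX5 and POU2F2 lay at percentiles 94.2, 91.5 and 86.5 of gene-level score, and POU2AF1 at 38.8. Percentiles are over measured genes of all lengths.

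**Figure D1:**
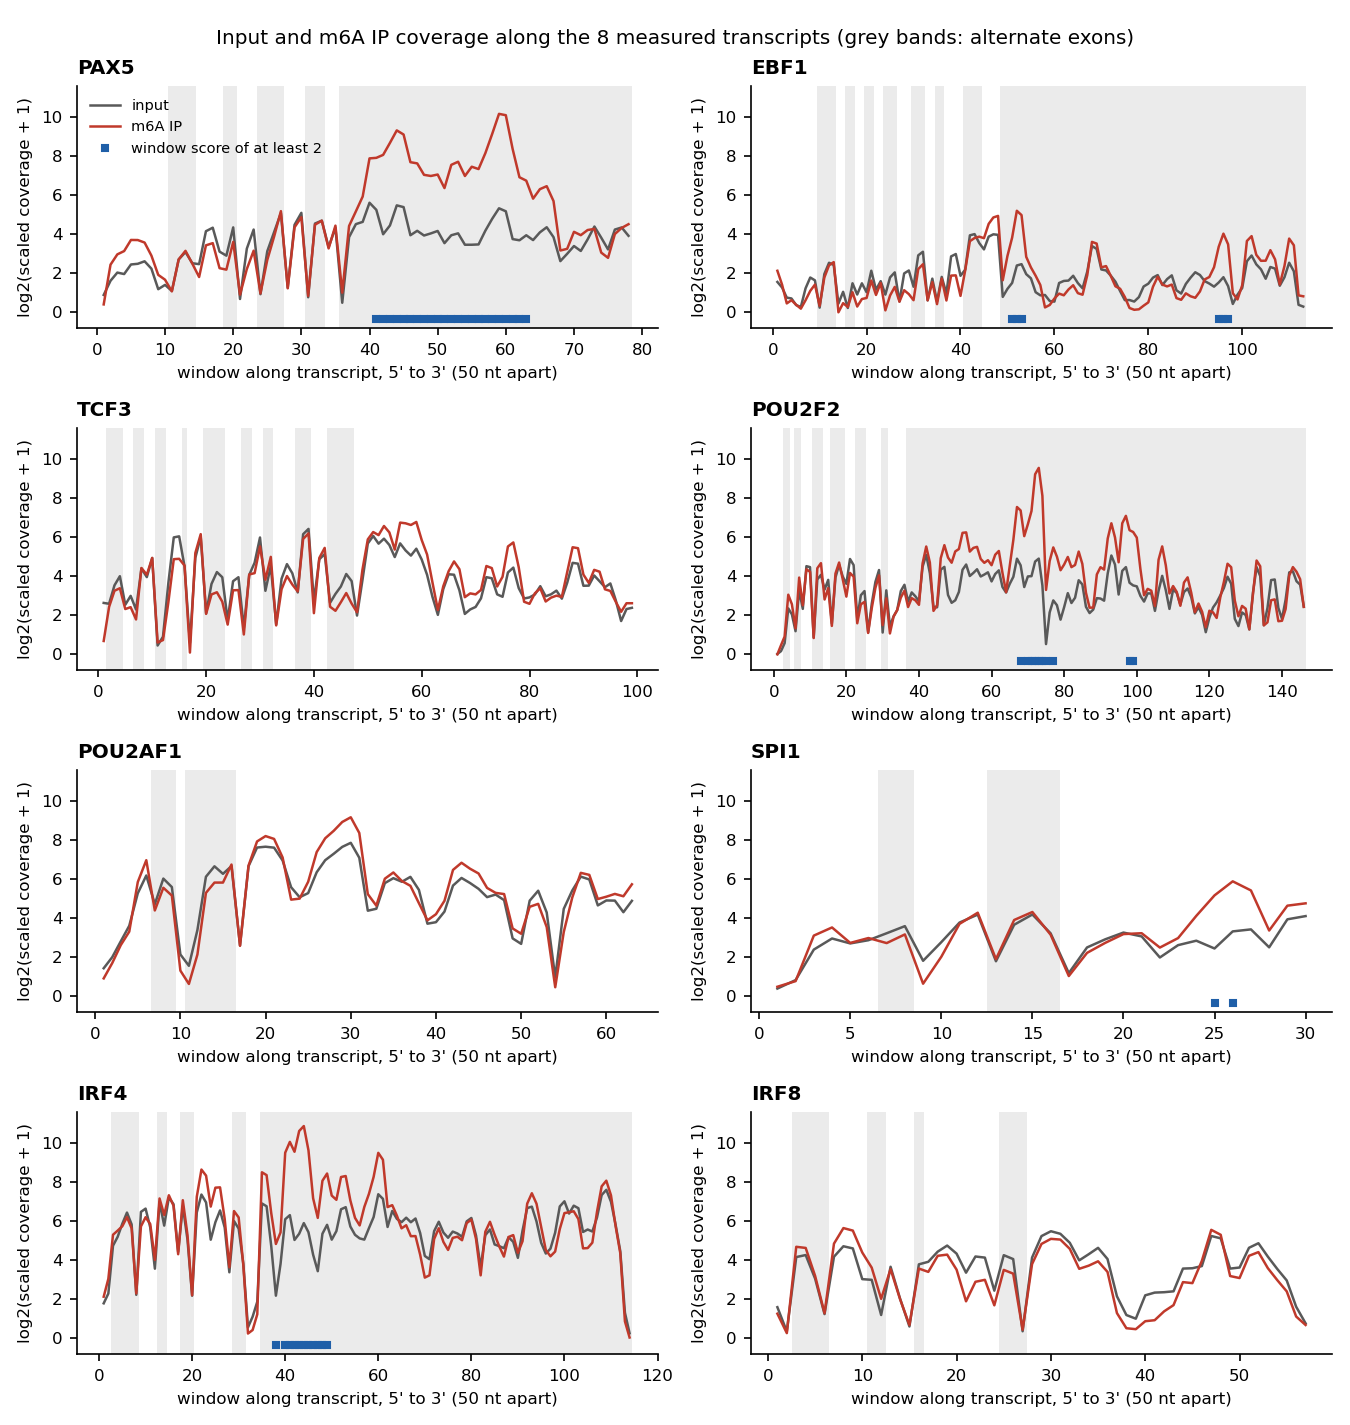
Scaled coverage of input (grey line) and m6A IP (red line) as log2(coverage + 1) against window number from 5′ to 3′ for the 8 measured genes, with alternate exons shaded and enriched windows marked by blue squares. IP stood above input over 23 enriched windows of PAX5, while in TCF3, POU2AF1 and IRF8 no window reached a score of 2.

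Every one of the 52 enriched windows lay in the exon at the 3′ end of its transcript, and so did all 7 regions. That exon held 441 of the 700 windows, of which 11.8% were enriched, compared with 8.65% of such windows over all measured genes with several exons. The other 259 windows held 0 enriched ones, and the corresponding share over all measured genes with several exons was 3.20%. Windows overlap and share transcripts, so no limit is set on the count of 0, and these shares are descriptions. Over all measured genes with several exons, 68.2% of 7224 regions had their peak in the 3′ terminal exon. The table gives no genome positions for windows, and positions below are distances from the 5′ edge of that exon, good to about 1 window. For POU2AF1 and SPI1 the strand was not in the gene table used, and the longer terminal exon was taken as the 3′ one, as it was in the other 8 genes.

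PAX5, the paired-box factor that commits progenitors to the B lineage and represses genes of other lineages, had the longest region. It ran over 23 consecutive windows, from 250 to 1450 nt into an exon of about 2150 nt. Of 7440 regions in measured genes, 35 (0.470%) were at least as long, and the median was 4 windows. The region had an upstream and a downstream maximum. At the first, 350 nt in, IP coverage was 411 and input coverage 21.0, a score of 3.77. Between the maxima, at 750 nt, IP fell to 81.8 over an input of 10.7, a score of 2.36, so the trough itself remained above the threshold.

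At the second maximum of PAX5, 1200 nt in, IP coverage was 1100 and input coverage 35.3, about 11350 and 573 reads. The score there was 4.46 with a counting interval of 4.34 to 4.58. IP was 31.1 times input in this window. Input along the region varied from 10.1 to 43.8 and was also high near both maxima, at 43.8 in the window at 400 nt and 39.4 in that at 1150 nt. The highest input window of the transcript, 48.2 at 200 nt, lay just outside the region, with an IP coverage of 237 and a score of 1.81. Exons 3 to 5 had the lowest scores of the gene, with medians of -1.22, -1.19 and -1.51, and input coverage of 12.1, 13.0 and 9.08 there exceeded IP coverage of 6.72, 7.41 and 4.17. Over the whole transcript, mean IP coverage was 110 and mean input 14.3, a ratio of 7.75 that placed PAX5 at percentile 95.3 of measured genes.

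EBF1, the early B cell factor that works upstream of and together with PAX5, had a pair of short regions far apart in its terminal exon of about 3250 nt. The first spanned 100 to 300 nt, and its peak window had an IP coverage of 35.98 over an input of 4.30. Its score was 3.005 (2.69 to 3.31), resting on about 371 and 70 reads. The second spanned 2300 to 2500 nt, with IP at 15.4 over input at 2.497 and a score of 2.43 (2.05 to 2.81), from about 159 and 41 reads. The intervals of the peaks overlap. Exon 15, just upstream, had a median score of 0.96 at IP coverage of 23.3 and input coverage of 13.0, without an enriched window. EBF1 carried the shallowest measured input of the 10 genes, and its gene-level score had the widest counting interval of the 8 measured ones.

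TCF3 encodes the E proteins E12 and E47, partners of EBF1 at the start of B cell development. Its mean input of 18.5 was well above that of EBF1, but no window was enriched. The highest window, 500 nt into the terminal exon, had an IP coverage of 98.2 over an input of 32.4, a score of 1.73. A further maximum of 1.49 lay at 1400 nt, with 45.3 over 17.4. The gene-level score was 1.64 (1.497 to 1.784), percentile 45.7, so the interval stayed below the threshold and the gene sat near the middle of measured genes. Mean IP coverage of exons 1 to 18 ranged from 0.598 to 46.8, and the highest score among them was 0.73.

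The octamer factor POU2F2 (OCT2) and its coactivator POU2AF1 (OBF1, BOB1) act together at DNA, yet their transcripts stood apart in the IP. POU2F2 had a mean input of 10.2 and a mean IP coverage of 34.6, whereas POU2AF1 had 57.7 and 84.0. In POU2F2 the main region spanned 1650 to 2000 nt of a terminal exon of about 5500 nt. Its peak at 1800 nt had an IP coverage of 752 over an input of 29.1, 25.9 times as high, with a score of 3.99 (3.86 to 4.12). A second region at 3050 to 3200 nt had IP at 76.3 over input at 10.6 and a score of 2.08 (1.86 to 2.31), an interval that includes the threshold. Upstream of the terminal exon no window of POU2F2 exceeded a score of 0.05.

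POU2AF1 had the deepest input of the 10 genes and still no enriched window. Its highest window lay 650 nt into the terminal exon, where the IP coverage of 578 was also the highest of the transcript, but the input there was 233 and likewise the highest. The score was 1.42, and the gene-level score was 1.40 (1.34 to 1.46), the narrowest interval of the 8 measured B cell factors. The gene-level score of POU2F2 exceeded that of POU2AF1 by 2.56 on the log2 scale, and their counting intervals did not overlap. In both genes the window with the highest IP coverage also had high input, at 233 in POU2AF1 and 29.1 in POU2F2.

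**Figure D2:**
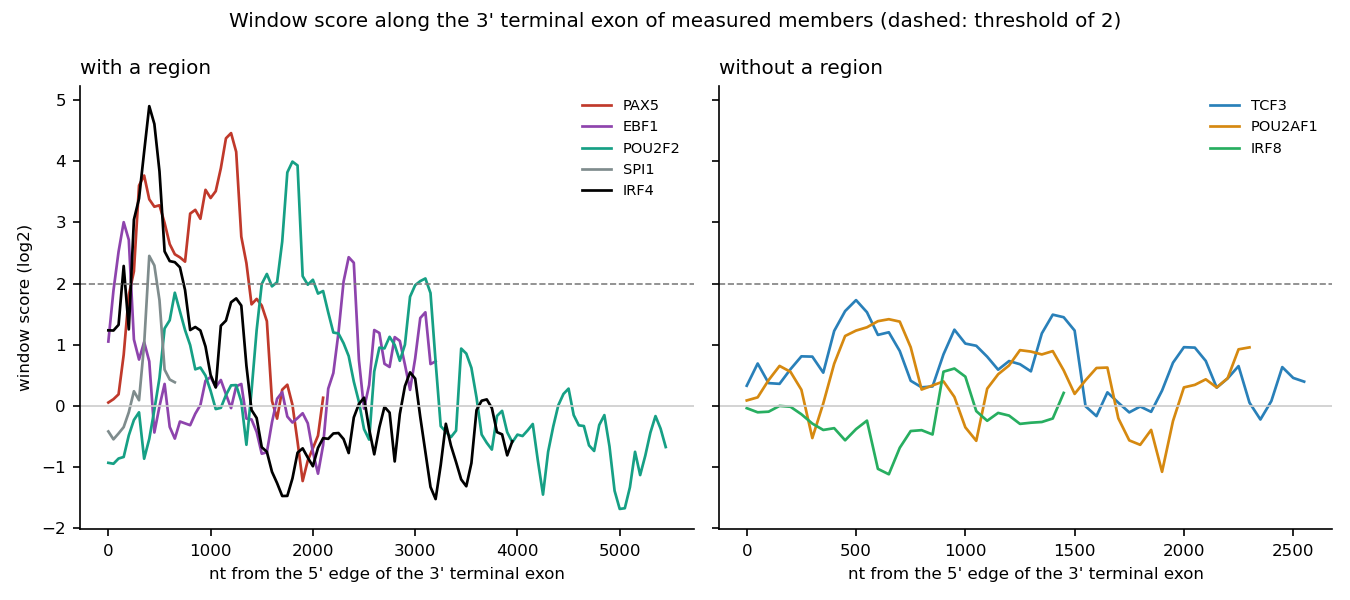
Window score (log2) against distance in nt from the 5′ edge of the 3′ terminal exon, for the 5 genes with a region (left) and the 3 without (right), with the threshold of 2 dashed. IRF4 peaked at 400 nt with 4.90, PAX5 at 1200 nt with 4.46 and POU2F2 at 1800 nt with 3.99, while TCF3 reached 1.73.

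SPI1 encodes PU.1, the ETS-domain factor whose dose helps to separate lymphoid from myeloid fates and which binds composite elements with IRF4 and IRF8. With 30 windows it had the shortest transcript of the 8 measured B cell factors, and its terminal exon was about 700 nt. The region held 2 windows, from 400 to 550 nt. In the first of them IP coverage was 35.2 over an input of 4.49, and in the second 58.6 over 9.08. The scores were 2.45 (2.15 to 2.76) and 2.30. Both exceeded the threshold by less than 0.5 on the log2 scale, at the smallest possible run for a region.

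IRF4, the interferon regulatory factor that drives class switching and plasma cell differentiation, had the highest gene-level score of the 10 genes at 4.76 (4.65 to 4.86). Its region spanned 250 to 800 nt of a terminal exon of about 4000 nt, with 10 windows. The peak at 400 nt had an IP coverage of 1579 over an input of 40.2, about 16296 and 651 reads, and IP was 39.3 times input. The next window had the highest IP coverage of the transcript, 1884 over 59.1, with a score of 4.61. A lone window at 150 nt also passed the threshold with a score of 2.29, at the low coverage of 27.7 over 3.57.

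Downstream of its region IRF4 had maxima that did not pass. At 1250 nt the IP coverage was 727, but the input was 166 and the score 1.76. The highest input of the transcript, 195 at 3700 nt, had an IP coverage of 270 and a score of 0.11. In exon 7 the median score was 0.87 and the maximum 1.41, at mean coverage of 186 in the IP and 77.7 in the input. The terminal exon as a whole had 11 of 80 windows enriched and a median score of -0.12. In PAX5 it had 23 of 43 windows enriched and a median of 2.34. The medians are not a like measure, since scores are relative to the gene's own median. That exon held 70.2% of the windows of IRF4 and 55.1% of those of PAX5.

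IRF8, the relative of IRF4 that acts earlier in B cells and in the germinal centre, gave the opposite layout. Its highest scores were in exon 3, where the top window had IP at 20.1 over input at 7.22 and a score of 1.66. The 4 windows of that exon had a median score of 1.22. In the terminal exon, of about 1500 nt, the median was -0.24 and the maximum 0.61. The gene-level score of 1.44 (1.19 to 1.68) was 3.32 below that of IRF4, with no overlap of counting intervals. IRF8 was the only measured gene of the 10 whose mean IP coverage, 12.5, was below its mean input of 14.0 on the deposited scaling, and it lay at percentile 24.3 of that ratio.

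By counting error alone, the order of gene-level scores was IRF4, PAX5, POU2F2, then EBF1 and SPI1 with overlapping intervals, then TCF3, IRF8 and POU2AF1. IRF8 overlapped both TCF3 and POU2AF1, while TCF3 and POU2AF1 did not overlap each other. Raising the threshold to 3, asking for at least 4 windows, or adding 5 before the logarithm left PAX5, POU2F2 and IRF4 as the 3 genes with a region, and EBF1 and SPI1 lost theirs.

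BCL6, the zinc finger repressor that defines germinal centre B cells, was covered by about 26 input and 18 IP reads over 78 windows. BACH2, a repressor that restrains plasma cell differentiation and is needed for class switching, had about 4 input and 18 IP reads over 189 windows. No input read covered 42 windows of BCL6 and 179 of BACH2, and the highest scaled coverage in either library was 0.673 for BCL6 and 0.288 for BACH2. At this depth a region was not detectable in either gene. IRF4 and PRDM1, the genes that act against them in plasma cell differentiation, were measured, with mean inputs of 56.8 and 1.59.

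The same pattern was visible in how coverage divided between exons. For 7 of the 8 measured genes the terminal exon took a larger share of IP than of input coverage. In PAX5 the share was 69.3% for input and 96.3% for IP coverage, a difference of 26.99 percentage points at percentile 87.8 of measured genes with several exons. SPI1 went from 45.5% to 66.9% and TCF3 from 49.4% to 67.1%, although TCF3 had no region. POU2F2 had 77.9% and 94.0%, EBF1 45.4% and 61.0%, and IRF4 70.9% and 83.8%.

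POU2AF1 differed least among these 7, with 82.6% for input and 89.3% for IP coverage, and lay at percentile 52.4. IRF8 was the exception, with 60.1% for input and 52.7% for IP coverage, at percentile 12.4. The medians over measured genes with several exons were 47.6% and 60.5%, and the median difference was 5.77 points. These shares come from the same coverage as the scores and are a further description of it, not separate support.

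**Figure D3:**
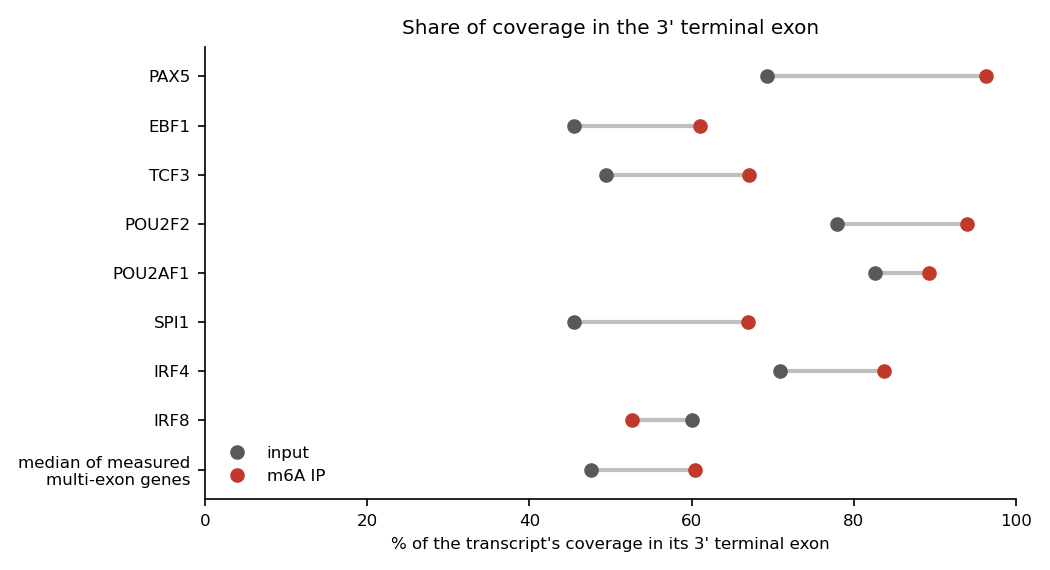
Percent of each transcript's scaled coverage that lay in its 3′ terminal exon, in the input (grey) and the m6A IP (red), for the 8 measured genes and the median of measured genes with several exons. PAX5 went from 69.3% to 96.3%, and IRF8 was the only gene in which the IP share (52.7%) was below the input share (60.1%).

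Transcript listings of the same gene share windows, and the score uses medians over all windows under the name. Equal scores between listings are therefore no separate support. POU2F2 had 4 listings. In 3 of them, with 142 to 146 windows, the gene-level score was 3.96 and both regions were present. The remaining listing had 40 windows and lacked the long terminal exon, with an exon of 9 windows not found in the kept listing. Its gene-level score was -0.04 and it had no region, at a mean input of 8.49 and a mean IP coverage of 7.79. That score is relative to the medians over all POU2F2 listings, whose log2 ratio of IP to input was 0.65 with 1 added.

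For IRF4 the 3 listings all gave 4.76, with 111, 114 and 111 windows. The first listing of 111 windows held no exon absent from the kept listing, and the other held 1 such exon, of 3 windows. The 2 TCF3 listings, of 99 and 91 windows, gave 1.64 and 1.63, and the 2 SPI1 listings were identical. Reads were not assigned to isoforms, so a window shared by several listings has the same coverage in each.

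Across the table the share of genes with a region rose with window number. With measured genes divided by window number into 4 classes of equal size, 11.5% with 2 to 32 windows, 36.7% with 32 to 55, 56.1% with 55 to 88 and 72.6% with 88 to 499 had a region. The median gene-level score of these classes rose too, from 0.81 through 1.62 and 2.36 to 3.16. SPI1 was in the lowest class and had a region. PAX5, POU2AF1 and IRF8 were in the third, and EBF1, TCF3, POU2F2 and IRF4 in the highest, so TCF3 had no region among genes that mostly have them. The part of length in these results was not tested.

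Relatives of the 10 genes were read in the same way, from lists of family members, partner factors and B cell genes. Of 21 family relatives, 11 were measured, 7 of them with a region (63.6%, against 44.2% of all measured genes). Their median score was 2.49. The highest were BACH1 at 4.66 (4.33 to 4.99) and POU2F1 (OCT1) at 4.57 (4.20 to 4.94), relatives of BACH2 and POU2F2. BACH1 had a mean input of 1.13 and POU2F1 of 2.13, so both lay close to the minimum. The lowest was IRF7, a regulator of interferon genes, at 0.64 (0.17 to 1.097) with a mean input of 17.5.

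Among 22 partner factors and corepressors, 18 were measured. A region was present in 14 of them, 77.8% (52.4% to 93.6%), and the median score was 2.92. Among all measured genes the share was 44.2%. The 18 genes were chosen with earlier results of these data known, so the interval is no test against that share. They had a median of 95 windows, from 21 to 220, and the share among all measured genes rose with window number. The part of length was not tested. IKZF3 (Aiolos) and IKZF1 (Ikaros), zinc finger factors of lymphoid development, had the highest scores at 6.29 and 6.17. MEF2B had the lowest at 0.50 (0.09 to 0.91).

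Within the Ikaros family IKZF1, IKZF2 and IKZF3 scored above each of the 8 measured B cell factors, and the 4.75 of IKZF5 (4.48 to 5.01) overlapped the interval of IRF4. IKZF2 (Helios) had 6.64 (6.49 to 6.78) at a mean input of 14.3, close to that of PAX5. IKZF4 was below the minimum at a mean input of 0.700. The NF-kB subunits, which Epstein-Barr virus activates in such lines, ranged lower. REL had 3.52, RELA 2.56 and NFKB1 2.55, each with a region. NFKB2 at 1.42 and RELB at 1.28 had none. The share with a region was thus 3 of 5, against 44.2% of all measured genes.

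**Figure D4:**
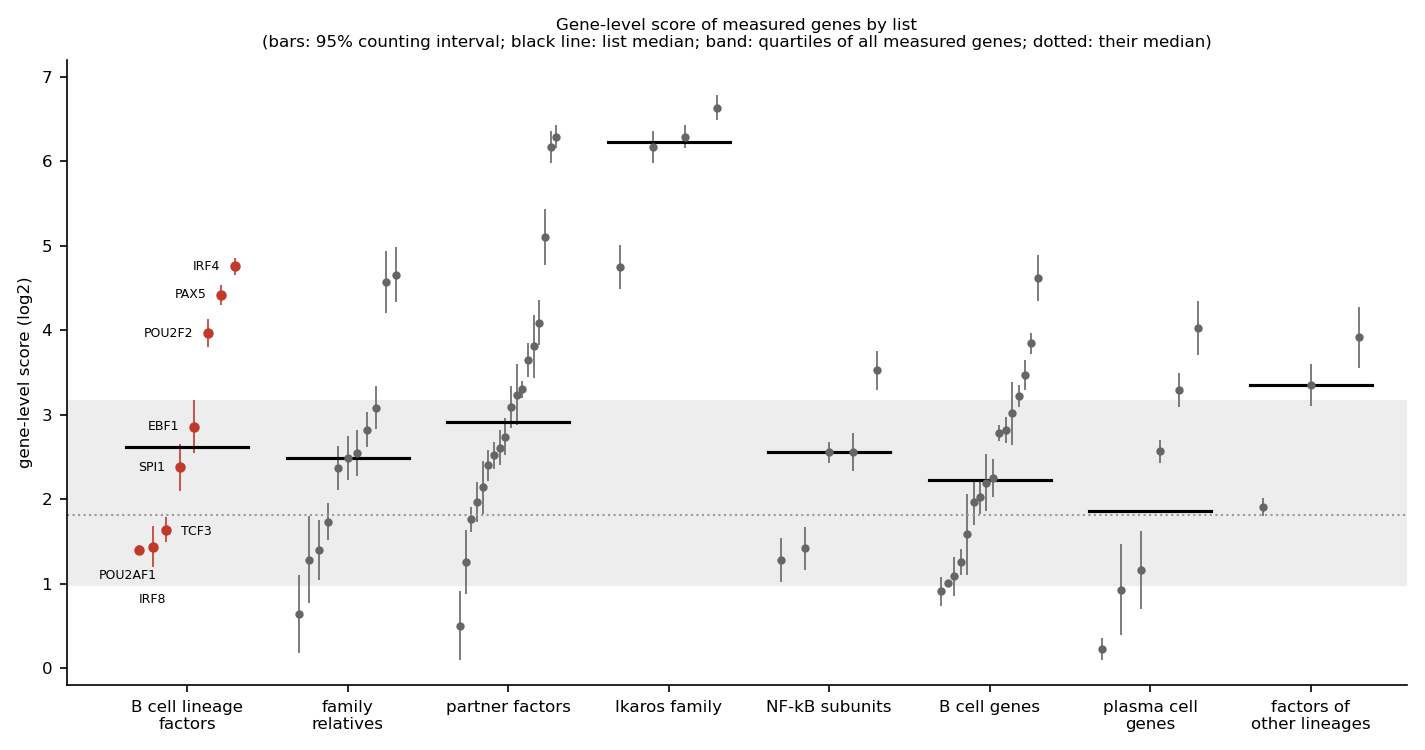
Gene-level score (log2) of each measured gene by list, with 95% counting intervals as bars, list medians as black lines, and the quartiles (band) and median (dotted line) of all measured genes. The 10 B cell factors, of which 8 were measured (red), ran from 1.40 for POU2AF1 to 4.76 for IRF4, and the Ikaros family from 4.75 to 6.64.

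B cell and plasma cell genes were mixed in score. Of 22 B cell genes, 16 were measured and 9 of these had a region (56.25%, against 44.2% of all measured genes). Their median score was 2.22. The highest were SYK, a kinase of B cell receptor signalling, at 4.62 and TNFRSF13C, the BAFF receptor, at 3.84. The lowest was BLNK, an adaptor of the same signalling pathway, at 0.91. All 6 plasma cell genes were measured, 3 of them had a region (50%, near the 44.2% of all measured genes), and the median was 1.86. PRDM1 (Blimp-1), the factor that ends the B cell programme, had 4.02 and SDC1 (CD138) 3.29, while MZB1 had 0.22. Mean IP coverage of MZB1 was nevertheless 65.0 over a mean input of 23.9, a difference that the score does not show.

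Factors of other lineages were mostly silent, with 3 of 14 measured. TBX21 (T-bet) had a score of 3.92 and EOMES of 3.35, both with a region, and TCF7 had 1.91 without one. Their mean inputs were 1.65, 3.47 and 14.4. Over all measured genes 44.2% had a region. These lists are small and overlap, since IKZF1 and IKZF3 are in 2 of them, and their counts were not tested against each other.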

How the data were processed

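TopHat 1.1.3 and the build hg19 are named in the submitters' processing notes. Not given in the sources used here were the coverage program, scaling factor and annotation. The coverage columns hold a signal scaled by the authors, per the file headers. The window scores are log2 values deposited by the authors, and 0 recomputed scores or medians differed by over 1e-06. Gene medians run over all windows under a name. Of coverage values above 0 and under 5000 steps, 100% were whole multiples of a step within 0.01; with reads of 36 nt, coverage of 1 equals 5.84 input reads or 3.71 IP reads per base.

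From these, regions and gene-level scores were computed in Python 3.11.15 (pandas 2.3.3, numpy 2.4.6; intervals by scipy 1.17.1, plots by matplotlib 3.10.9) and the code was tested on simulated data. Intervals (95%) propagate read-counting error with medians held fixed and neighbouring windows treated as fully correlated; reads have no molecular identifiers. List shares have Clopper-Pearson intervals, which treat the genes of a list as a random sample. The table numbers exons in genome order, and the text counts them from the 5′ end of the transcript. The longer terminal exon was listed last in 89.0% of 7031 plus-strand genes and first in 88.8% of 6771 minus-strand genes, by strands from a RefSeq table on GRCh38, of which no coordinate was used. All list genes were found, 1 (JCHAIN) as IGJ. Named were all members, every Ikaros and NF-kB gene, markers, and the 2 top-scoring and the bottom-scoring measured gene of the remaining lists. SOX2, the marker examples and single windows beyond region peaks were picked after their values were seen. Members and lists were chosen with earlier results of these data known. No test across groups was possible with 1 library each. Alternatives covered the threshold, run length, number added, centring, median, listing and input minimum.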

Additional observations from a re-analysis of the deposited data

How the results depend on the processing

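Of the recomputed counts, shares and medians, 71 stayed within 1.5 times or their interval and 21 moved. With a threshold of 1, 8 of the 8 measured genes had a region (71.4% of all measured genes), 18.6% of their windows were enriched and 5 NF-kB genes had a region. With a threshold of 3 the values were 3 genes (26% of all), 3.57% of windows, 3 family relatives, 8 partner factors, 4 B cell genes and 1 NF-kB gene. Runs of at least 4 windows left 3 of the 8 genes (31% of all), 9 partner factors and 1 NF-kB gene. With 5 added, 3 genes had a region (33.9% of all), the median score was 2.03 and 4 family relatives had a region. Without centring, 10.1% of windows were enriched, and the median window score over measured genes was -0.06 instead of 0.06. With an input minimum of 5, 34.1% of all genes that passed had a region. So did 3 of 7 family relatives, 9 of 12 partner factors, 1 of 4 plasma cell genes and 0 of 1 factor of other lineages. With the listing of fewest windows the median score was 2.003, and POU2F2 reversed to -0.043. That POU2F2 listing lacks the long terminal exon but is still centred on the medians over all POU2F2 listings. Other member scores ranged from 4.67 to 5.12 (IRF4), 4.37 to 4.88 (PAX5), 2.11 to 3.20 (EBF1), 1.95 to 2.64 (SPI1), 1.48 to 1.68 (TCF3), 1.29 to 1.41 (POU2AF1) and 1.14 to 1.53 (IRF8). The share of member regions in the longer terminal exon was 88.9% with a threshold of 1 and 100% in the other 7 alternatives run. The causes of these changes were not tested. No paired analysis was possible because each group has 1 library. Depth limits EBF1, BCL6 and BACH2 most.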
